A study of Mus musculus with 6 samples.

Results

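Medium spiny neurons are the principal cells of the striatum, GABAergic projection neurons that receive cortical and thalamic glutamate and midbrain dopamine. Those of the indirect pathway carry the D2 dopamine receptor and the adenosine receptor Adora2a, and those of the direct pathway carry the D1 receptor. Adora2a and the D1 receptor activate adenylyl cyclase through Golf, while the D2 receptor inhibits it through Gi and Go. Golf is a G protein in which the alpha subunit Gnal is joined to the gamma subunit Gng7. The identity of medium spiny neurons is set by transcription factors, among them Foxp1 and the retinoid receptors Rarb and Rxrg. The 9 genes described here are known for strong expression in these neurons and were taken by symbol, namely Adora2a, Gpr6, Rgs9, Gnal, Gng7, Rarb, Rxrg, Scn4b and Foxp1. Each matched 1 of the 37620 genes listed, and all 9 were among the 16127 genes that passed the filter, a mean of 10 or more normalized counts (reads scaled to a common library size).

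The tissue was the pre-limbic cortex (PLc), an area of the medial prefrontal cortex, where the principal cells are glutamatergic pyramidal neurons. Male C57Bl/6 mice aged 9 weeks received ketamine at 30 mg/kg or saline vehicle intraperitoneally each day for 5 days, and the PLc was dissected 2 days afterwards. RNA Seq was performed on 3 saline mice, numbered 1, 6 and 10, and on 3 ketamine mice, numbered 3, 5 and 9, with 1 library for each mouse. The labels give the same strain, age and tissue for both groups. Between 26273436 and 32643726 reads were recovered for a library, and the top 10 genes held 7.09% to 9.73% of them. Markers of cortical excitatory neurons were present in every library, with Slc17a7, the main vesicular glutamate transporter of the cortex, between 22152 and 49417 normalized counts. Several libraries stood apart in cell type markers. Ketamine mouse 9 had 1129 normalized counts of Eomes, a mitral cell transcription factor of the olfactory bulb, against 5.75 to 14.5 in saline mice. Ketamine mice 3 and 5 were also above the saline mice for Eomes, at 156 and 77.1. Saline mouse 10 had 152192 of Mbp, a myelin gene, against 16581 and 22353 in the other saline mice. In bulk tissue, fewer cells of a type cannot be told apart from less RNA per cell, and this holds for every value below.

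Of the 9 genes, 8 were most abundant in ketamine mouse 3 and next in ketamine mouse 5. Foxp1 alone did not follow this order. Ketamine mouse 9 lay within the saline range for Rgs9, Gng7, Rarb and Rxrg. It was above that range for Adora2a and Gpr6 and below it for Gnal, Foxp1 and Scn4b. At an adjusted p under 0.05, limma called 0 of the 9 genes, beside 0.0% of all genes tested (0 of 16127), and at an unadjusted p under 0.05 it gave 6 of the 9, all higher in ketamine, beside 5.81% of all genes tested in either direction and 3.44% with ketamine higher. The same 6 had a log2 fold change of at least 1, beside 2.41% of all genes tested. The median log2 fold change of ketamine over saline was 1.36 over the 9 genes and -0.0145 over all genes tested. On whole reads recovered from the table, edgeR's quasi-likelihood test called 0 of the 9, beside 0.0% of all genes tested, with 6 of them at an unadjusted p under 0.05 and higher in ketamine, beside 3.99% of all genes tested. DESeq2, the package named in the study's methods, called 2 of the 9, Adora2a and Gpr6, beside 1.13% of all genes tested in either direction and 0.899% with ketamine higher.

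**Figure D1:**
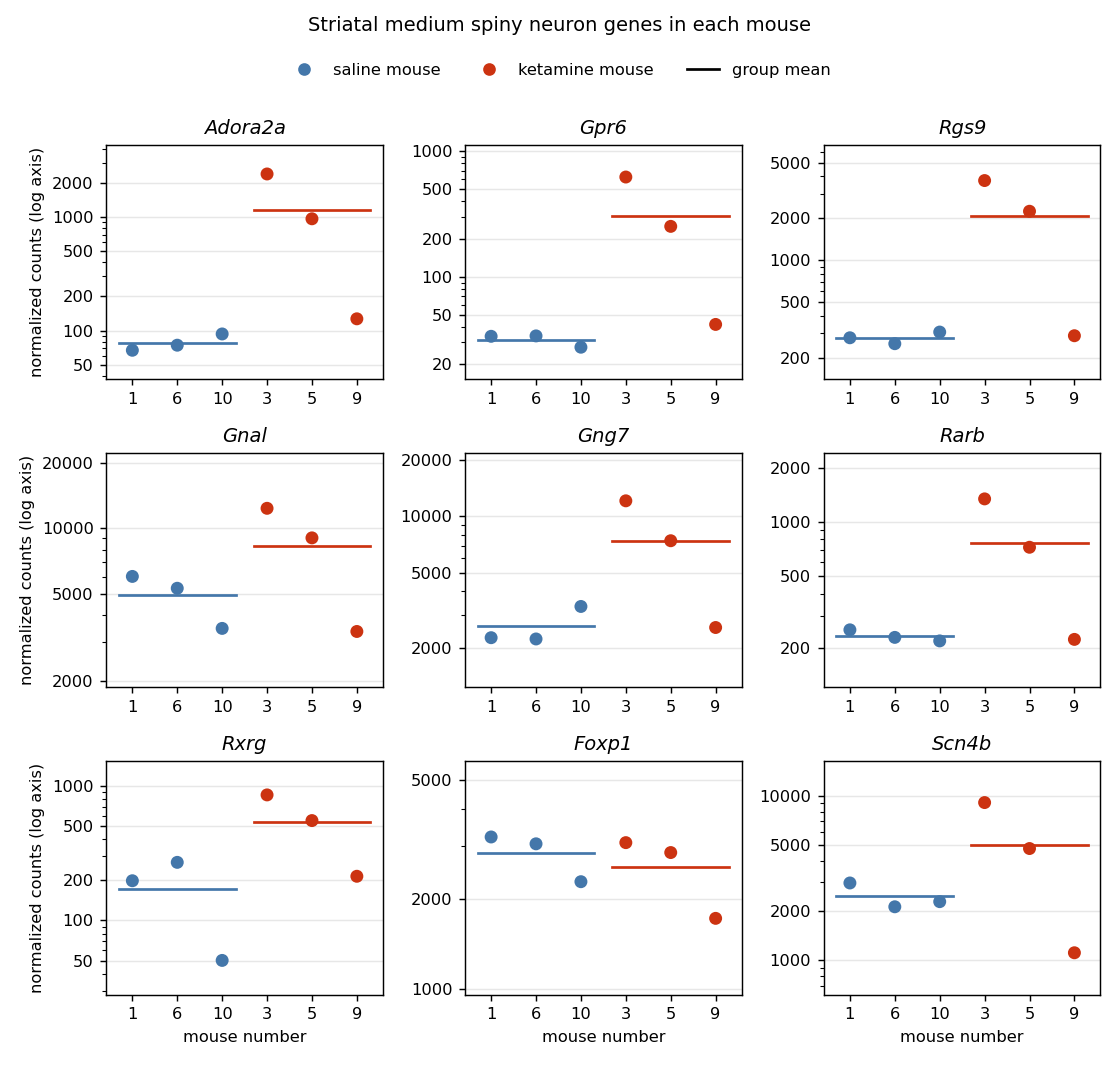
Normalized counts of each of the 9 genes (vertical log axis, with its own range in each panel) in saline mice 1, 6 and 10 (blue) and ketamine mice 3, 5 and 9 (red), with a line at each group mean. In 8 panels the points of mice 3 and 5 stand above all others, and in the Foxp1 panel the highest point is saline mouse 1.

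The 2 receptors of the set are those of indirect pathway neurons. Adora2a (ENSMUSG00000020178, mm9 chromosome 10, plus strand, from 74779688 to 74797533) encodes an adenosine receptor that raises cAMP through Golf. It stood at 67.05, 74.3 and 93.3 normalized counts in saline mice 1, 6 and 10, and at 2395, 965 and 127 in ketamine mice 3, 5 and 9. The groups were separate, with mouse 9 the ketamine mouse nearest to the saline mice, at 1.62 times their mean. The means were 78.2 ± 13.6 and 1162.5 ± 1147 (SD, n = 3 each). The limma estimate was 3.09 log2 units (SE 0.946, limma adjusted p = 0.643) and that of DESeq2 3.90 (SE 1.01, DESeq2 adjusted p = 0.015). Over the 16 alternative settings tried, the adjusted p of Adora2a ran from 0.015 to 0.9999. An exact permutation test, two-sided, gave p = 0.1, the smallest that 3 mice against 3 allow.

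Gpr6 (ENSMUSG00000046922, minus strand of chromosome 10 from 40789795 to 40792091) encodes an orphan receptor that signals through Gs without an added ligand and is enriched in the same indirect pathway neurons. It was the scarcest of the 9 genes, at 33.5, 33.8 and 27.45 normalized counts in saline mice 1, 6 and 10. Ketamine mice 3, 5 and 9 had 624, 252 and 41.7, so that the groups were separate here too (two-sided p = 0.1 by the exact permutation test). The means were 31.6 ± 3.58 and 306 ± 295 (SD, n = 3 each). The limma estimate was 2.54 log2 units (SE 0.869, limma adjusted p = 0.723). With DESeq2 it was 3.28 (SE 0.723, DESeq2 adjusted p = 0.00117), and over the alternatives the adjusted p ran from 0.00117 to 0.9999. Adora2a and Gpr6 were the 2 of the 9 genes whose groups were separate with ketamine higher, beside 5.69% of all genes tested, and 0 were separate with ketamine lower, beside 4.66%. Relative to the saline mean, Adora2a stood at 30.6-fold, 12.3-fold and 1.62-fold in ketamine mice 3, 5 and 9, and Gpr6 at 19.7-fold, 7.98-fold and 1.32-fold.

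Of the 7 genes whose promoter windows were searched, Gpr6 had a complete cAMP response element there, and its sequence is shown for that reason. RefSeq windows of 300 bases (GRCm38.p6, from 250 bases before a start to 50 after it) were taken for 7 of the 9 genes, 11 windows in all. Gnal was left out of the search, and Adora2a had no window. Each of the 11 matched mm9 once and without a change. The palindrome TGACGTCA, searched on both strands, lay in 1 of the 11 windows and in 1.79% of all 32851 windows. In Gpr6 it began 78 bases before the start site. The window lies on the minus strand at chr10:40792047-40792346 of mm9, with its start site 5 bases from the nearest GENCODE transcript start of the gene. The palindrome is in capitals.
Gpr6: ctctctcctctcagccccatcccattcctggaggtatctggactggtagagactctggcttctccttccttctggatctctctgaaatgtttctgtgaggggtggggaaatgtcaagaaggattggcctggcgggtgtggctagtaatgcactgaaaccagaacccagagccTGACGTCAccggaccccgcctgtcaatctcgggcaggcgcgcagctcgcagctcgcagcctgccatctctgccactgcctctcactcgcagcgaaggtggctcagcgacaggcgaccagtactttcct

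Rgs9, Gnal and Gng7 act just inside the receptors. Rgs9 (ENSMUSG00000020599, minus strand of chromosome 11 from 109086669 to 109159443) encodes a regulator that speeds GTP hydrolysis by Gi and Go proteins, and its long brain form damps D2 receptor signalling in the striatum. Saline mice 1, 6 and 10 gave 278, 252 and 305 normalized counts of Rgs9, and ketamine mice 3, 5 and 9 gave 3737, 2249 and 287. Mouse 9 lay inside the saline range. The means were 278 ± 26.7 and 2091 ± 1730 (SD, n = 3 each). By limma the difference was 2.27 log2 units (SE 0.852, limma adjusted p = 0.788), and the DESeq2 adjusted p was 0.0853, in a range of 0.0509 to 0.9999 over the 16 alternatives. The exact permutation p was 0.2, two-sided.

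Gnal (ENSMUSG00000024524) encodes the Golf alpha subunit, which stands in for Gs in the striatum and the olfactory system. It was among the most abundant of the set, at 6017, 5308 and 3471 normalized counts in saline mice 1, 6 and 10 and at 12371, 9047 and 3360.2 in ketamine mice 3, 5 and 9. Mouse 9 was the lowest of all 6 mice, with saline mouse 10 next. The means were 4932 ± 1314 and 8259 ± 4557 (SD, n = 3 each). By limma the difference was 0.59 log2 units (SE 0.471, limma adjusted p = 0.999), 0.20 without ketamine mouse 3, 0.35 without saline mouse 10 and 1.14 without ketamine mouse 9. Gnal shares 365 exon bases with Mppe1 on the other strand, which averaged 425 normalized counts, and the strand setting of the counting is not given in the sources used here.

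Gng7 (ENSMUSG00000048240, minus strand of chromosome 10 from 80411369 to 80477690) encodes the gamma subunit that Golf needs in the striatum. Its counts in saline mice 1, 6 and 10 were 2266, 2231 and 3321, and in ketamine mice 3, 5 and 9 they were 12092, 7421 and 2567. Mouse 9 again lay among the saline mice. From 2606 ± 619 in saline to 7359.9 ± 4763 in ketamine (SD, n = 3 each), the limma estimate was 1.26 log2 units (SE 0.522, limma adjusted p = 0.851). The DESeq2 adjusted p was 0.0922, in a range of 0.0922 to 0.9999 over the 16 alternatives. Rgs9 and Gng7 placed all 6 mice in exactly the same order.

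The 2 retinoid receptors of the set bind DNA together as a heterodimer. Rarb (ENSMUSG00000017491, minus strand of chromosome 14 from 17263356 to 17651381) encodes the retinoic acid receptor beta, a driver of striatal neuron differentiation. Rarb was at 253, 229.7 and 219.6 normalized counts in saline mice 1, 6 and 10, and at 1342, 724 and 224 in ketamine mice 3, 5 and 9. The saline mice were closest together for this gene, the highest at 1.15 times the lowest, and mouse 9 lay within their range. The means were 234 ± 17.1 and 763 ± 560.1 (SD, n = 3 each). The limma estimate was 1.36 log2 units (SE 0.579, limma adjusted p = 0.86), and the DESeq2 adjusted p was 0.0714, in a range of 0.0714 to 0.9999 over the 16 alternatives. Of the 9 genes, Rarb had the profile closest to their mean, from which it differed by 0.12 (root mean square over the 6 mice, log2 scale).

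Rarb is also a textbook target of retinoic acid, through a response element of 2 direct repeats set 5 bases apart (DR5). That element was found in 1 of the 11 windows, which is Rarb's, and in 0.0974% of all 32851 windows, and the window is shown because the receptor and its own element stand in 1 gene. The search used the DR5 motif by name, on both strands, with A or G as the first base of each repeat and G or T as the third. The match began 53 bases before a start site 4 bases from a GENCODE transcript start, inside the gene at chr14:17407941-17408240 of mm9, minus strand, with the element in capitals.
Rarb: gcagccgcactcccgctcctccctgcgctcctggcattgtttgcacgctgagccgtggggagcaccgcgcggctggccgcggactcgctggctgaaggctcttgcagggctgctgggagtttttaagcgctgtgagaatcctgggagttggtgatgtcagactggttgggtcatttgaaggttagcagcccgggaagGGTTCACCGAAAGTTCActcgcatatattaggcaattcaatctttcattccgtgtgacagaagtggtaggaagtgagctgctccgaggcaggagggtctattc
The letters show that the element is present and nothing about its use in these mice. None of the 11 windows held the forkhead motif TGTTTAC, which 3.65% of all windows held, on either strand.

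Rxrg (ENSMUSG00000015843, plus strand of chromosome 1 from 169528515 to 169569754) encodes the retinoid X receptor gamma, a heterodimer partner of the retinoic acid receptors. Its saline values spread most, at 197, 270.2 and 50.5 normalized counts in mice 1, 6 and 10, with the highest 5.35 times the lowest. Ketamine mice 3, 5 and 9 had 857, 552 and 213. Mouse 9 lay between saline mice 1 and 6, and saline mouse 10 was far below all others. The means were 173 ± 112 and 540.6 ± 322 (SD, n = 3 each). By limma the difference was 1.73 log2 units (SE 0.716, limma adjusted p = 0.851), and the DESeq2 adjusted p was 0.246, in a range of 0.246 to 0.9999 over the 16 alternatives. Without saline mouse 10 the estimate was 1.01.

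Foxp1 (ENSMUSG00000030067, minus strand of chromosome 6 from 98875332 to 99216526) encodes a forkhead repressor of the striatum that is also strong in neurons of the cerebral cortex. Foxp1 was at 3219, 3054 and 2282 normalized counts in saline mice 1, 6 and 10, and at 3081, 2855 and 1721 in ketamine mice 3, 5 and 9. Mice 3 and 5 were within the saline range, and mouse 9 was the lowest of the 6. The means were 2851 ± 500.0 and 2553 ± 729 (SD, n = 3 each). The limma estimate was -0.19 log2 units (SE 0.251, limma adjusted p = 0.999), and it was 0.073 without ketamine mouse 9. Its exons share 75 bases with Eif4e3 on the same strand, which averaged 4.53 normalized counts.

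Scn4b (ENSMUSG00000046480, plus strand of chromosome 9 from 44946520 to 44962235) encodes the beta 4 subunit of voltage-gated sodium channels, whose intracellular end supports resurgent current. Scn4b was at 2945, 2111 and 2268 normalized counts in saline mice 1, 6 and 10, and at 9066, 4767 and 1109 in ketamine mice 3, 5 and 9. The ketamine mice thus spanned the whole range of the 6, with mouse 3 the highest and mouse 9 the lowest. The means were 2441 ± 443 and 4981 ± 3983 (SD, n = 3 each). By limma the difference was 0.59 log2 units (SE 0.684, limma adjusted p = 0.999), and it was -0.071 without ketamine mouse 3.

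**Figure D2:**
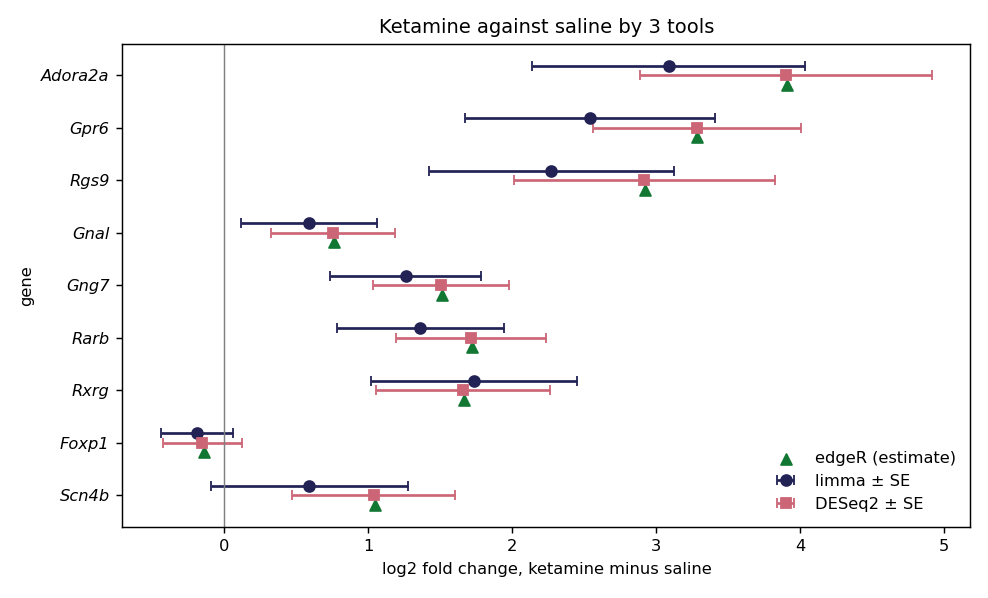
Log2 fold changes of ketamine over saline (horizontal axis) for the 9 genes (vertical axis), by limma (circles) and DESeq2 (squares) with bars of 1 standard error, and by edgeR (triangles, estimate only). Estimates run from 3.09 for Adora2a to -0.19 for Foxp1 by limma, and those by DESeq2 passed the threshold for Adora2a and Gpr6.

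Divided by exon length, the levels in saline mice formed an abundant and a scarce range. Per kilobase of exon, Gng7 had 688 ± 164 normalized counts, Gnal 623 ± 166 and Scn4b 494 ± 89.7 (SD, n = 3), and neighbours among these 3 lay within their spread. Foxp1 followed with 239 ± 41.9 per kilobase. The scarce range ran from Rxrg at 75.2 ± 48.7 and Rarb at 71.1 ± 5.18, which overlapped, through Rgs9 at 43.6 ± 4.18 and Adora2a at 30.9 ± 5.36, to Gpr6 at 17.8 ± 2.02 per kilobase. In ketamine mouse 3 the order was different, with Adora2a, at 945 per kilobase, next behind Gng7 at 3194, Scn4b at 1835 and Gnal at 1562, and Foxp1 in last place at 258. The 3 genes of the lowest baseline, Gpr6, Adora2a and Rgs9, were those furthest above the saline mean in mouse 3, and the abundant Gnal, at 2.51-fold, and Foxp1, at 1.08-fold, were nearest to it.

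The order of mice 3 and 5 at the top was alike in most of the 9 genes. Mouse 3 highest and mouse 5 second was the order of 8 of the 9 genes, beside 5.98% of all genes tested, and the order of the ketamine mice alone, 3 above 5 above 9, held for all 9, beside 18.3% of all genes tested. Mouse 3 was at least 2-fold above the highest saline mouse for 8 genes, beside 2.29% of all genes tested. In 6 genes, both mice 3 and 5 were at least 2-fold above the highest saline mouse, beside 0.806% of all genes tested, and in 0 genes was this so of mouse 9, beside 2.1% of all genes tested. For each of the 36 pairs of genes, the 15 pairs of mice were compared. A median of 11 of the 15 stood in the same order in both genes, with a range from 6 (Adora2a and Foxp1) to 15, whereas the median was 7 for the members against all other genes tested. The 28 pairs without Foxp1 had a median of 11.5 and a lowest value of 9. In those 28, mouse 3 first and mouse 5 second fixes 9 of the 15 by itself, so the median mostly restates that order. These pairs of mice share libraries, and mice 3 and 5 form a cluster of their own, so no correlation over the 6 mice was computed.

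The size of the step from mouse 5 to mouse 3 was compared as well, and it ran from 1.75 to 2.85 over the 8 genes other than Foxp1. Above the saline mean, mouse 3 had 2.68 times the excess counts of mouse 5 for Gpr6, 2.61 times for Adora2a and 2.26 times for Rarb. The ratio was 1.97 for Gng7, 1.81 for Gnal, 1.802 for Rxrg and 1.75 for Rgs9, and it was highest for Scn4b at 2.85. For Foxp1 the excess of mouse 5 was 3.84 normalized counts, which is too small for a ratio. Over the 130 genes tested with both mice at least 2-fold above the highest saline mouse, the ratio ranged from 0.27 to 60.5 with a median of 1.73. A range over 130 genes is wider by their number alone. Only 6 of the 9 genes are among the 130, without Gnal, Scn4b and Foxp1, so the ranges are not directly comparable. Markers of other cells also had ratios within 1.75 to 2.85, with Eomes at 2.16, Tbx21 at 1.89 and Pbx3 at 2.12. Others lay outside it, with Cdhr1 at 1.12 and Dlx6 at 2.99.

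**Figure D3:**
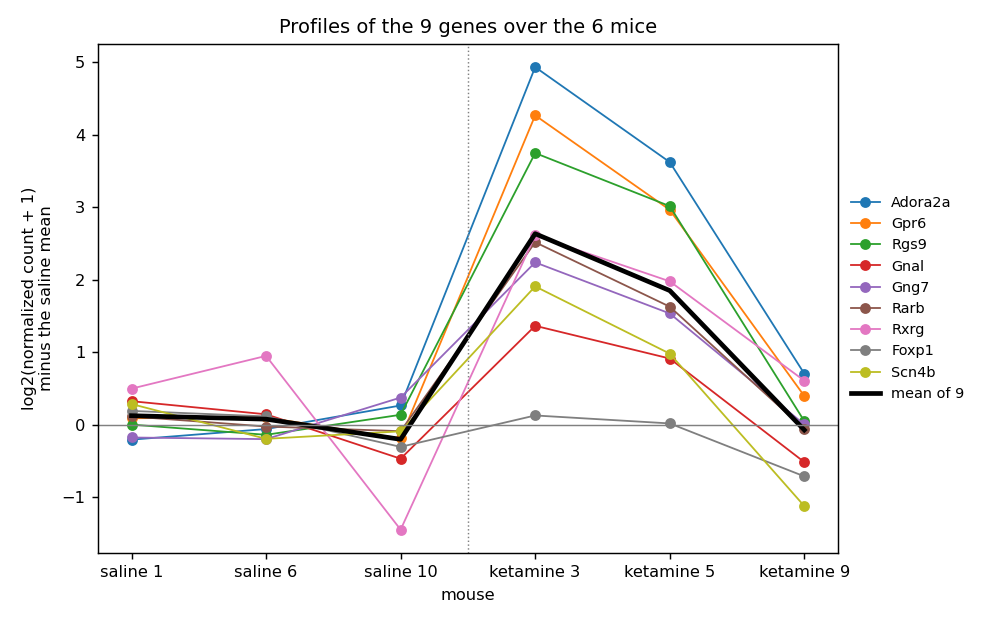
Log2(normalized count + 1) of each gene minus its saline mean (vertical axis) in the 6 mice (horizontal axis), with lines joining the points of a gene and a thick line for the mean of the 9. The mean stands at 2.63 in ketamine mouse 3, 1.85 in mouse 5 and -0.072 in mouse 9, while the Foxp1 line stays near 0 in mice 3 and 5.

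Mouse 9 was the lowest of the 6 mice for Gnal, Foxp1 and Scn4b, 3 of the 9 genes, a share near the 29.1% of all genes tested. Mice 9 and 10 were the lowest pair for Gnal, Foxp1 and Rarb, again 3 of the 9, beside 16.6% of all genes tested. Relative to the saline mean, mouse 9 had 0.454-fold the Scn4b, 0.604-fold the Foxp1 and 0.681-fold the Gnal. It had 1.23-fold the Rxrg and 1.03-fold the Rgs9.

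The estimates depended on which ketamine mice entered. Without mouse 9 they were 4.28 log2 units for Adora2a, 3.62 for Gpr6 and 3.38 for Rgs9 (limma adjusted p = 0.0871, 0.0949 and 0.0509). Without mouse 3 they were 2.16, 1.68 and 1.53 for these genes, 0.77 for Gng7 and 0.78 for Rarb. With both mice 3 and 5 left out, which was tried after seeing the data, the median over the 9 genes was 0.0035, with Adora2a at 0.70, Rxrg at 0.61 and Gpr6 at 0.40 above the saline mean and Scn4b at -1.12, Foxp1 at -0.71 and Gnal at -0.52 on the log2 scale. None of these passed the threshold.

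**Figure D4:**
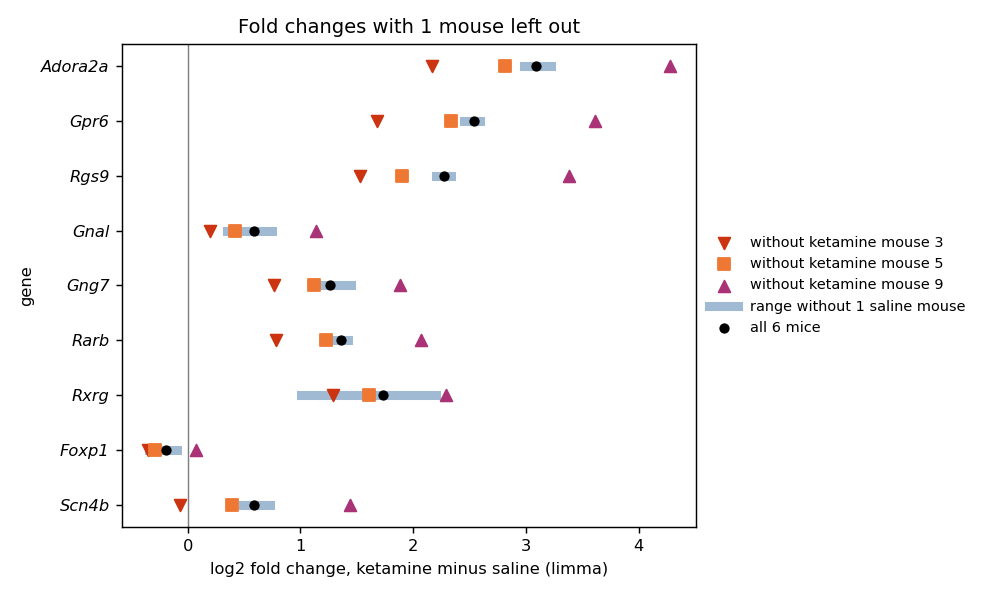
Log2 fold change of ketamine over saline by limma (horizontal axis) for the 9 genes (vertical axis), with all 6 mice (black circles), without each ketamine mouse (coloured symbols) and over the range without 1 saline mouse (bars). For all 9 genes the estimate is highest without mouse 9 and, among ketamine mice left out, lowest without mouse 3, where Scn4b falls below 0.

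Other genes known from medium spiny neurons mostly had the same mice at the top. A list of 27 such genes had 26 tested, of which 25 had a log2 fold change above 0 and 1 below it, with a median of 1.08. limma called 0 of the 26 and DESeq2 called 5 higher (Penk, Tac1, Syndig1l, Sp9 and Slc35d3) and 0 lower. Mouse 3 was highest and mouse 5 second for 20 of the 26, and ketamine mice 3, 5 and 9 had mean log2 levels of 2.46, 1.73 and 0.26 above that of the saline mice. The D1 receptor gene Drd1 was at 2631, 1237 and 116 normalized counts in ketamine mice 3, 5 and 9, against 184 to 237 in saline mice, and the D2 receptor gene Drd2 was at 1609, 618 and 25.4, against 22.2 to 221. Markers of both output pathways were therefore high in mice 3 and 5. Slc35d3, a gene needed for D1 receptor trafficking, and Penk, the enkephalin precursor of indirect pathway neurons, were with Sp9 those of the smallest p, and all 3 had mouse 9 above the saline mice as well. Slc35d3 had 14.4 to 20.9 normalized counts in saline mice and 531, 269 and 222 in ketamine mice 3, 5 and 9 (4.20 log2 units, SE 0.361, limma adjusted p = 0.0922). Penk had 916 to 1359 in saline mice and 12073, 5693 and 3377 in ketamine mice. Sp9, a transcription factor of indirect pathway neurons and of immature interneurons, was highest in mouse 9, at 978 against 472 and 341 in mice 3 and 5. In 12 of these genes, mice 3 and 5 both stood at least 2-fold above the highest saline mouse. Their excess counts in mouse 3 were 1.60 to 3.0001 times those in mouse 5, with a median of 2.49. Over the 8 genes other than Foxp1 the median was 2.115. The 12 were picked by the same values that make up the ratio, so their range is not independent of that choice. In the other tested genes of the list, the ratio ran from -0.23 for Kcnip2 to 3.56 for Ebf1.

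Golf and cAMP signalling has further parts beside Gnal and Gng7. Of 15 partners of Golf and cAMP signalling, all tested, 10 were above 0 and 5 below, with a median log2 fold change of 0.0965, and limma and DESeq2 called 0 in either direction (1 at an unadjusted p under 0.05 by limma). The 4 genes that this list shares with the striatal list, Ppp1r1b, Adcy5, Pde10a and Pde1b, had its highest fold changes. Mouse 3 was highest and mouse 5 second for 6 of the 15, these 4 with Ric8b and Prkar2b, and ketamine mice 3, 5 and 9 had mean log2 levels of 0.65, 0.38 and -0.21 from that of the saline mice. Ric8b, a chaperone of the Golf alpha subunit, was at 1902, 1423 and 958 in ketamine mice 3, 5 and 9, against 1051 to 1167 in saline mice. Ppp1r1b, which encodes a phosphatase inhibitor that relays dopamine signals, stood at 12441, 5942 and 1851 normalized counts in ketamine mice 3, 5 and 9, against 1769 to 2133 in saline mice. Adcy5, the striatal adenylyl cyclase that Golf drives, had 15492, 9401 and 3231, against 3856 to 4721. Pde1b, a calcium-dependent phosphodiesterase, had 12017, 7925 and 4224, against 3518 to 4417. The beta subunit genes Gnb1 and Gnb2, which serve G proteins in all neurons, had log2 fold changes of -0.096 and 0.0965, and Prkaca, a catalytic subunit of protein kinase A, one of 0.0030 (limma adjusted p = 0.9993, 0.9993 and 0.9999).

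The closest family relatives of the 9 genes lay near 0 as a list. Over 22 relatives, all tested, the median log2 fold change was -0.054, with 8 above 0 and 14 below. The mean log2 level of the relatives relative to the saline mean stayed between -0.1186 and 0.0694 in all 6 mice, and mouse 3 highest with mouse 5 second was the order of 2 of the 22, Rxra and Foxp2. Beside Adora2a, the A1 receptor gene Adora1, which couples to Gi, had 5556 to 7781 normalized counts in saline mice and 4840, 5582 and 4021 in ketamine mice 3, 5 and 9. Beside Gnal, the Gs alpha subunit gene Gnas had 35980 to 39055 in saline mice and 34646, 33037 and 41684 in ketamine mice. Beside Rxrg, the broadly expressed Rxrb had 1756 to 1835 in saline mice and 1652 to 1809 in ketamine mice. Rxra, the alpha member of the same family, had 1039, 882 and 546 in ketamine mice 3, 5 and 9, against 679 to 825 in saline mice. Foxp2, which marks striatal neurons and deep cortical layers, had 1375 and 600.2 in mice 3 and 5 and 359 in mouse 9, against 268 to 502 in saline mice. Gng4 had another order, at 2787, 2656 and 7543 in ketamine mice 3, 5 and 9 against 882 to 1345 in saline mice, and was the 1 relative that DESeq2 called (1.74 log2 units and adjusted p = 0.401 by limma, adjusted p = 0.00089 by DESeq2 and 0.388 by edgeR). Gng2 had 5617 to 6146 in saline mice and 3564 to 4573 in ketamine mice.

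Among the 12290 genes outside the lists whose mean reached 100 normalized counts, those of the nearest profile were Prkch, Scn9a, Syt10, Arhgap6 and Fam40b. Their log2 values differed from the mean of the 9 genes by 0.262, 0.263, 0.372, 0.425 and 0.435 (root mean square over 6 mice). Prkch, a protein kinase C gene, had 110 to 124.5 normalized counts in saline mice and 593, 294 and 122 in ketamine mice 3, 5 and 9. Scn9a, which encodes a sodium channel alpha subunit, had 48.3 to 80.1 in saline mice and 383, 163 and 48.0 in ketamine mice. In both, mouse 9 was within the saline range or just under it.

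Markers of other cells moved with mice 3, 5 and 9 as well, and their part in the values above was not tested. The summed level of 12 cortical excitatory neuron markers was 62299 to 83729 normalized counts in saline mice and 38251 to 66557 in ketamine mice, lowest in mouse 3. Of the 12, 11 had a log2 fold change below 0 and 1 above, with a median of -0.54, and DESeq2 called 1 lower, Neurod6. Neurod6, a transcription factor of cortical projection neurons, had 3275 to 4051 normalized counts in saline mice and 856, 1884 and 1663 in ketamine mice 3, 5 and 9 (-1.35 log2 units, SE 0.293, adjusted p = 0.3675 by limma, 0.00459 by DESeq2 and 0.388 by edgeR). Nptx1 and Fezf2 had log2 fold changes of -0.85 and -1.11. Mouse 3, highest in 8 of the 9 striatal genes, thus had the lowest sum of these cortical markers, of which Slc17a7 was the largest part. Mouse 9, with little of the striatal genes, had the next lowest sum. Tle4, Cux2, Nptx1 and Rorb were not lowest in mouse 3, unlike the rest of the 12. Tle4 was highest there of all 6 mice, at 2004 normalized counts.

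The 8 markers of GABAergic neurons summed to 25884 to 30353 normalized counts in saline mice and 35139 to 53861 in ketamine mice, and all 8 were above 0 with a median log2 fold change of 1.21. limma called 0 of them, and DESeq2 called Dlx5, Dlx6, Dlx2 and Dlx1, the Dlx genes that guide the development of GABAergic neurons. The Dlx genes were highest in mouse 9, unlike the 9 genes. So was Gad1, which makes GABA, at 21399 normalized counts against 15903 and 11653 in mice 3 and 5. Gad2, which also makes GABA, instead had 15054, 6999 and 4972 normalized counts in mice 3, 5 and 9. Mouse 3 was highest and mouse 5 second for 2 of the 8 markers. The 7 markers of mitral and tufted cells of the olfactory bulb summed to 617 to 1130 in saline mice and to 1729 to 9588 in ketamine mice, all 7 above 0, with a median of 2.94 and 4 called higher by DESeq2 (Cdhr1, Tbx21, Eomes and Lbhd2). Their sum was highest in mouse 9, then 3, then 5, with Cdhr1 at 4006, 900 and 817 normalized counts and Tbx21 at 362, 47.0 and 26.3. Slc17a6, a vesicular glutamate transporter, was instead highest in mouse 3, at 1352 against 503 in mouse 5 and 701 in mouse 9. The 7 markers of neuroblasts and olfactory granule cells summed to 5206 to 6294 in saline mice and 8754 to 19236 in ketamine mice, all 7 above 0, with a median of 1.33 and 4 called higher by DESeq2 (Dcx, Tshz1, Pbx3 and Sp8). limma and edgeR called 0 in each of these lists. No marker of these lists was at 0 in all 6 mice.

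**Figure D5:**
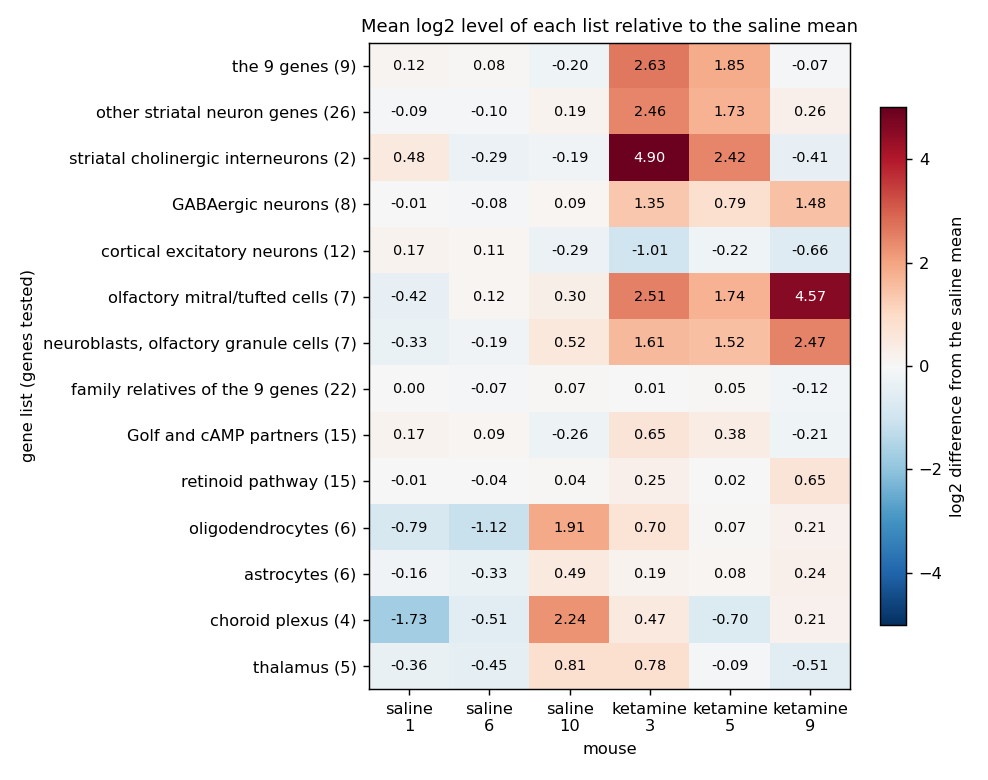
Mean log2 level of each gene list (rows, with the number of genes tested) relative to the saline mean, in the 6 mice (columns), as colour and number. The 9 genes and the other striatal neuron genes are high in ketamine mice 3 and 5 and near 0 in mouse 9. The olfactory mitral and tufted cell markers are high in mice 3 and 5 too (2.51 and 1.74) and highest in mouse 9 (4.57). Neuroblast and olfactory granule cell markers likewise stand at 1.61, 1.52 and 2.47 in mice 3, 5 and 9. The family relatives stay near 0.

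The remaining lists hold other cell types. Over 6 oligodendrocyte markers the median log2 fold change was 0.30, over 6 astrocyte markers 0.17, over 4 choroid plexus markers -0.37 and over 5 thalamic markers -0.0705, and neither limma nor DESeq2 called any of these genes. The mean log2 level of the thalamic markers from the saline mean was 0.78, -0.0885 and -0.51 in mice 3, 5 and 9 and 0.81 in saline mouse 10. It included the scarce Gbx2, at 48.9, 10.35 and 0.91 normalized counts in mice 3, 5 and 9. Prkcd (458, 243 and 237) and Rora (1910, 1769 and 1319) also ran 3 above 5 above 9. In saline mice Prkcd had 243 to 732 and Rora 1808 to 2245. Tcf7l2 (279.96, 133 and 197) and Lef1 (135, 124 and 159) had other orders. The oligodendrocyte markers were highest in saline mouse 10, with a summed level of 375412.5 normalized counts against 104408 to 159720 in ketamine mice. Saline mice 1 and 6, at 55579 and 43443, were below every ketamine mouse.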

How the data were processed

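RNA Seq was performed by the authors on the PLc of 3 saline and 3 ketamine mice, with paired-end reads aligned to mm9 by Tophat 2.0.11, counted per gene with HTSeq and analysed with DESeq2. The annotation, strand setting and filters are not given in the sources used here. Per gene, the deposited signal is a read count scaled by the authors with 1 size factor per library, given to 2 decimals. All values were whole multiples of 1 step per library (100.0%, within 0.006), so whole reads were recovered. All 6 columns were used, each matched to the label with its mouse number. Exon lengths and coordinates came from GENCODE M1 on mm9, which held 37205 of the identifiers, and promoter windows from RefSeq (GRCm38.p6).

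With R 4.3.3, limma 3.58.1 (prior variance trended on mean level) was fitted to log2(normalized count + 1) of all 16127 genes with a mean of at least 10, with two-sided p-values adjusted by Benjamini-Hochberg over all of them and a threshold of 0.05. Fold changes on this scale understate those of scarce genes. Recovered reads were tested with edgeR 4.0.16 and DESeq2 1.42.0. Other settings were the pseudocount, the filter, the scaling, the trend and leaving out each mouse. p-values set the difference between groups against the variation between mice of 1 experiment, and limma's variances are moderated over all genes tested. Named genes are the 9, the 3 of smallest p in a list, Drd1 and Drd2, family relatives and the 5 nearest profiles, and others (such as Mbp, Slc17a7, Gad2, Dlx1, Gnb1, Gnb2 and Prkaca, and list genes called by DESeq2) were picked after their values were seen. A gene that the rule names is not reported here. The 9 genes and all lists were chosen with earlier results of these data known, so their counts and medians are descriptions.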

Additional observations from a re-analysis of the deposited data

How the results depend on the processing

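Over 16 alternative settings, 137 of 144 fold changes of the 9 genes kept their direction and their side of the threshold. With DESeq2 on recovered reads, Adora2a (3.90) and Gpr6 (3.28) passed it, and the number of genes called was 182, against 0 with limma (937 at an unadjusted p under 0.05) and with edgeR (1007). With 1 mouse left out, between 0 and 1 genes were called, the 1 being reached without ketamine mouse 5 and without ketamine mouse 9. Foxp1 ranged from -0.35 to 0.073, changing direction without ketamine mouse 9, and Scn4b from -0.071 to 1.44, changing direction without ketamine mouse 3. With ketamine mice 3 and 5 both left out, a setting added after seeing the data, Gnal (-0.52), Rarb (-0.061) and Scn4b (-1.12) changed direction and the median of the 9 genes was 0.0035; that fit leaves ketamine with 1 mouse, assumed to vary like the saline mice. The cause of the other changes was not tested. Pseudocounts, filters, scalings and the trend changed no direction and no call among the 9 genes. The scarcest gene, Gpr6, had at least 27.45 normalized counts in every library, and what limited the calls was not tested. No paired analysis was possible because mouse numbers differ between the groups.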

Other observations

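Genes of striatal cholinergic interneurons, the large acetylcholine neurons of the striatum, were also high in ketamine mice 3 and 5. Of 4 listed markers, 3 were found and 2 tested. Slc5a7, the choline transporter, had 27.0 to 40.6 normalized counts in saline mice and 919, 159 and 27.2 in ketamine mice 3, 5 and 9 (2.23 log2 units, SE 1.104, limma adjusted p = 0.94). Chat, which makes acetylcholine, had 6.59 to 22.03 in saline mice and 396, 72.4 and 7.25 in ketamine mice (2.38 log2 units, SE 1.284, limma adjusted p = 0.975). limma, edgeR and DESeq2 called neither. The excess of mouse 3 over the saline mean was 7.07 times that of mouse 5 for Slc5a7 and 6.40 times for Chat, above the 1.75 to 2.85 of the 8 medium spiny neuron genes other than Foxp1, a difference that was not tested.

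Rarb and Rxrg act in the retinoid pathway, other genes of which were listed too. Of 16 listed genes, 15 were tested, 9 above 0 and 6 below, with a median log2 fold change of 0.0895, and 1, Rxra, had mouse 3 highest and mouse 5 second. At an unadjusted p under 0.05 by limma, 3 were higher in ketamine (Crabp1, Rarg and Stra6) and 1 was lower (Cyp26b1). limma called 0 and DESeq2 called 1, Crabp1, a retinoic acid binding protein gene that was highest in mouse 9, at 120 normalized counts against 61.7 and 29.2 in mice 3 and 5 and 2.87 to 19.8 in saline mice (adjusted p = 0.455 by limma, 0.02565 by DESeq2 and 0.529 by edgeR). Cyp26b1, which breaks down retinoic acid, had 228 to 441 normalized counts in saline mice and 156 to 204 in ketamine mice, and its groups did not overlap (-0.88 log2 units, SE 0.268, limma adjusted p = 0.636). Rarg had 220.0 to 286 in saline mice and 313 to 341 in ketamine mice (0.42 log2 units, limma adjusted p = 0.811).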
